A study of Mus musculus with 29 samples.

Results

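RNA-seq of E17.5 cortex from 4 dcKO embryonic samples treated with a Wnt inhibitor (WNTi) was compared with that of 4 WT samples treated with vehicle. These 8 libraries, of 29 samples in the series, were taken by their sample names, which give genotype and treatment. The comparison asks which genes still differed from WT after Wnt inhibition, and which differed only with the inhibitor. A further 4 dcKO libraries treated with vehicle came from the same set of 12 and were placed beside the others throughout.

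All 12 libraries were of embryonic cortex from C57BL/6J mice. The dcKO embryos carried Baf155 fl/fl and Baf170 fl/fl alleles, which are alleles of Smarcc1 and Smarcc2, together with the hGFAP-Cre transgene, labelled BAF dcKO_hGFAP-Cre. The WT embryos were labelled wild type, and the labels do not say which floxed alleles or Cre they carried. The inhibitor was ICG-001, which blocks the binding of β-catenin to its coactivator CBP and was injected daily into the pregnant mothers. The hGFAP promoter is active in neural progenitors of the medial pallium and later in those of the dorsal and lateral pallium, and cells outside this lineage, such as interneurons, vessels, microglia and meninges, are not expected to lose the genes, which was not measured here. No WT library with inhibitor was analysed here, so genotype and inhibitor cannot be told apart in the comparison of inhibitor-treated dcKO with WT vehicle. The labels do not say whether replicates were separate embryos or litters, so the p-values measure the spread between these samples only. In bulk tissue, fewer cells of a type and less RNA per cell cannot be told apart.

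BAF (mSWI/SNF) complexes move nucleosomes with the energy of ATP, and BAF155 and BAF170 are core scaffold subunits on which the complex is built. In canonical Wnt signaling, secreted ligands bind Frizzled receptors and LRP coreceptors, β-catenin escapes degradation, enters the nucleus, and joins TCF/LEF factors at target genes such as Axin2. In the developing pallium, Wnt ligands from the cortical hem pattern the hippocampal primordium and keep progenitors dividing.

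TCF/LEF factors recognise a short core sequence, and the stretches that hold it are shown for 4 Wnt genes whose levels are described later. The letters searched were CTTTGAA, or CTTTGAT, or CTTTGTA, or else CTTTGTT, on both strands, within the 250 bases before each RefSeq transcription start (GRCm38.p6, the same assembly as mm10). None of the 4 can overlap another on the same strand. Capitals mark the match, and a match on the other strand reads as its reverse complement.
Dkk1, chr19:30549586-30549615, minus strand, within the untranslated part of the first exon in GENCODE: agCTTTGAAatcccatcccggCTTTGTTgt
Fzd7, chr1:59481995-59482045, plus strand, upstream of the gene: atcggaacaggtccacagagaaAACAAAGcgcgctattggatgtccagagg
Lef1, chr3:131156125-131156175, plus strand, in an intron of the longer transcripts, before an internal start: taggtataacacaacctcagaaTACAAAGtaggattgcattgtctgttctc
Tnfrsf19, chr14:61038161-61038211, minus strand, in an intron, before an internal start: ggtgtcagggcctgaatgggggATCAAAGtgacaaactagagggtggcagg

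A match was held by 4874 of all 32851 windows, or 14.8%, and by 4527 of 27025 genes, or 16.8%, when any of a gene's windows was counted. Of 40 matched genes in the lists of Wnt ligands, receptors, secreted antagonists and targets, 7 held one. These letters were not in the windows of Axin2, Fzd5, Sfrp5 or Wnt2b. The genes with a match did not move alike, since Dkk1 lay above WT in 7 of 8 dcKO libraries, Fzd7 lay near WT with inhibitor, and Tnfrsf19 lay below WT with inhibitor.

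RNA from the deleted genes varied among the libraries labelled dcKO, and it was examined first because it bears on every later comparison. Levels are in CPM, counts scaled to a common library total after TMM scaling, which compares one gene between libraries and not one gene with another. Smarcc1 (ENSMUSG00000032481, chr9:110117708-110240178, mm10) was at 244.5, 266, 299 and 256 CPM in WT vehicle libraries 1 to 4. It was at 136, 242.5, 133 and 138 CPM in dcKO vehicle libraries 1 to 4, and at 214, 252, 139.8 and 173 CPM in dcKO WNTi libraries 1 to 4. In the inhibitor group, library 2 thus lay within the WT range, library 1 lay a little under it, and libraries 3 and 4 were well below. Smarcc2 (ENSMUSG00000025369, chr10:128459248-128490482) was at 834, 716, 664 and 711 CPM in WT, at 439, 692, 425 and 435 CPM in dcKO vehicle, and at 644, 695, 416 and 586 CPM in dcKO WNTi. As a share of the WT mean, the 2 genes stood at 94.6% and 95% in the library labelled dcKO WNTi 2, at 80.5% and 88.1% in WNTi 1, at 52.5% and 56.8% in WNTi 3, and at 65.1% and 80.1% in WNTi 4. The library labelled dcKO vehicle 2 stood at 91.1% and 94.6%, whereas the other 3 vehicle libraries stood between 50% and 60%.

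Between inhibitor-treated dcKO and WT vehicle the log2 difference was -0.45 for Smarcc1 (SE 0.205, edgeR adjusted p = 0.243) and -0.32 for Smarcc2 (SE 0.178, adjusted p = 0.327). Prm1, a protamine that packs sperm DNA and has no known role in cortex, gave a further mark of the dcKO libraries. It was at 0.0775 to 0.331 CPM in WT, at 28.9, 2.49, 28.1 and 30.8 CPM in dcKO vehicle, and at 2.87, 2.87, 12.2 and 8.21 CPM in dcKO WNTi. Every dcKO library was above every WT library, including the 3 whose deleted-gene RNA was over 75% of the WT mean (vehicle 2, WNTi 1 and WNTi 2), which had the lowest Prm1 levels of the dcKO libraries. All main counts below keep the 12 libraries as labelled. Adjusted calls over all genes, and over most lists described, are also given without these 3 libraries, a choice made after the values were seen, which leaves 4 WT, 3 dcKO vehicle and 2 dcKO WNTi libraries. Why the 3 libraries stood near WT was not tested.

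**Figure D1:**
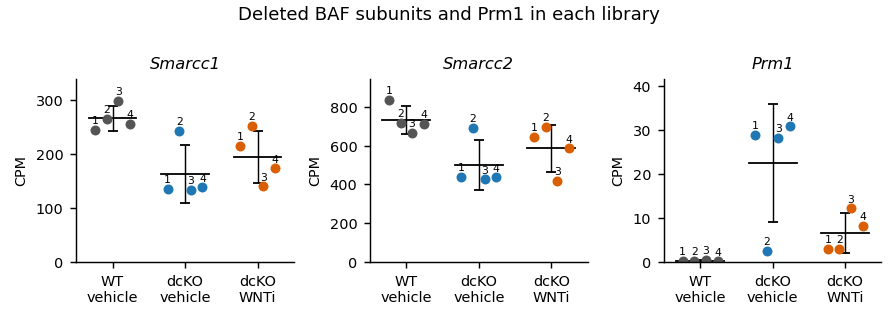
CPM of Smarcc1, Smarcc2 and Prm1 (vertical axes) in WT vehicle, dcKO vehicle and dcKO WNTi libraries. Points are libraries numbered by replicate, and bars are the mean ± SD (n = 4). dcKO vehicle 2 and dcKO WNTi 1 and 2 sit at over 75% of the WT mean for both deleted genes, and their Prm1 levels of 2.49 to 2.87 CPM are above the WT maximum of 0.331 CPM.

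Few genes differed between inhibitor-treated dcKO and WT vehicle after adjustment, while many differed nominally. With edgeR's quasi-likelihood test over 16372 genes, 10 genes rose (0.0611%) and 6 fell (0.0366%) at an adjusted p under 0.05, 16 in all (0.0977%). At an unadjusted p under 0.01, called nominal here, 493 genes were higher (3.01%) and 607 lower (3.71%). The 4 inhibitor libraries lay wholly above the 4 WT libraries for 569 genes (3.48%) and wholly below them for 658 (4.02%). For dcKO vehicle against WT, the same fit had 1 gene higher after adjustment (0.00611%), Prm1 with an adjusted p of 0.0493, and none lower, with 1549 genes (9.46%) at an unadjusted p under 0.05. The vehicle libraries lay wholly above WT for 505 genes (3.08%) and wholly below for 422 (2.58%). DESeq2 called 85 higher (0.519%) and 35 lower (0.214%) in that comparison, and 324 higher (1.98%) and 458 lower (2.8%) in the inhibitor group against WT. Without the 3 libraries near the WT level of the deleted genes, edgeR called 448 higher (2.66%) and 793 lower (4.72%) with inhibitor, and 416 higher (2.47%) and 562 lower (3.34%) with vehicle, of 16815 genes. All 16 genes called with the 12 libraries were among the 1241 called without the 3.

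The call of 16 genes depended on single libraries. It became 1453 without dcKO WNTi 2, 187 without WT 1 and 129 without dcKO vehicle 2. It became 8 without WT 3, 2 without WNTi 1 and 1 without dcKO vehicle 3, and 0 without WT 2, WT 4, dcKO vehicle 1, dcKO vehicle 4, WNTi 3 or WNTi 4. A fit of only the inhibitor and WT vehicle libraries called 8 genes, all of them higher, and 3 of these were among the 16. Batches touched the groups as well. The sequencing lanes named in the files were L001 and L002 for WT and L001, L002 and L003 for the inhibitor group, and a fit with lane as a term called 0 genes after adjustment, with 489 nominally higher and 636 lower. Y-linked RNA was present in 2 of 4 WT and 3 of 4 inhibitor libraries, and a fit with its presence as a term called 1 gene, with 451 nominally higher and 556 lower. The library dcKO vehicle 1 held Y-linked RNA at 109.1 CPM together with Xist at 672.9 CPM, whereas each of the other 11 held only one of them above 4 CPM. The part of lane and sex in these counts was not tested further.

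Among the 10 genes that rose with inhibitor were regulators of transcription and a mitochondrial enzyme. Otx2, a homeodomain factor of the choroid plexus, hem and midbrain (ENSMUSG00000021848, chr14:48657677-48673819), was at 1.69, 2.05, 1.65 and 2.36 CPM in WT, at 2.53, 1.43, 2.40 and 3.68 CPM in dcKO vehicle, and at 7.89, 5.17, 6.12 and 5.38 CPM in dcKO WNTi. All 4 inhibitor libraries were above the 8 others, and the rise over WT was 1.64 on the log2 scale (SE 0.257, edgeR adjusted p = 0.0464). Ikzf1, a zinc-finger factor of lymphocytes that is also used in early cortical progenitors and striatal neurons (ENSMUSG00000018654, chr11:11685003-11772926), was at 2.71, 1.95, 4.63 and 1.86 CPM in WT and at 13.6, 18.7, 19.1 and 14.2 CPM with inhibitor, against 0.802 to 5.88 CPM in dcKO vehicle. Its groups did not overlap, and the rise over WT was 2.60 (SE 0.438, adjusted p = 0.0475). Neither gene followed the deleted genes among inhibitor libraries, since WNTi 1 and WNTi 2 were above WT together with WNTi 3 and WNTi 4, with overlapping values. Metap1d, a mitochondrial methionine aminopeptidase, rose by 0.78 (SE 0.123, adjusted p = 0.0464), from 26.2 to 36.5 CPM in WT to 51.2 to 62.9 CPM with inhibitor.

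The other genes that rose were mostly low or poorly characterised. Stra6l, a relative of the retinol transporter Stra6, rose by 1.21, the cytoskeletal septin Sept1 by 0.70, the non-coding Eldr by 0.94, and Gm5415 by 3.2. Gm17491 rose by 0.94 with the smallest adjusted p of the comparison, 0.0192, and Gm5577 rose by 0.77. Both lie within or opposite other genes, and the library kit does not mark strand, so their reads cannot be told apart from those of their neighbours. Amy1 rose by 1.16, with the reservation that amylase genes have near-identical copies.

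Of the 6 genes that fell, 3 act in neurons. None of the 6 was called in the fit of only the inhibitor and WT vehicle libraries, which called 0 genes lower. Sv2b, a synaptic vesicle glycoprotein (ENSMUSG00000053025, chr7:75114894-75309262), was at 49.1, 58.0, 56.1 and 60.4 CPM in WT, at 41.0, 42.7, 44.0 and 44.1 CPM in dcKO vehicle, and at 41.0, 35.4, 30.8 and 30.8 CPM with inhibitor. Both dcKO groups lay below WT, and the log2 difference from WT was -0.70 with inhibitor (SE 0.107, adjusted p = 0.0464) and -0.38 with vehicle (adjusted p = 0.281). Epha6, an ephrin receptor of axon guidance (ENSMUSG00000055540, chr16:59653483-60605531), was at 10.3, 13.5, 11.7 and 13.5 CPM in WT and at 3.53, 6.31, 2.82 and 4.66 CPM with inhibitor, with 8.68 to 10.2 CPM in dcKO vehicle. It fell by 1.5 from WT (SE 0.206, adjusted p = 0.0401), and its inhibitor libraries lay below the 8 others. Nav2, a microtubule-binding protein of neurite growth, was at 192 to 238 CPM in WT, 159 to 199 CPM in dcKO vehicle, and 106 to 140.1 CPM with inhibitor, and its log2 difference from WT was -0.76 (SE 0.116, adjusted p = 0.0464).

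The remaining genes that fell were Gm37127, Rpl29 and BC049715. BC049715 was at 0.992 to 1.33 CPM in WT, 1.07 to 1.58 CPM in dcKO vehicle and 0.0972 to 0.459 CPM with inhibitor, and it fell by 1.98 against WT (adjusted p = 0.0475) and by 2.12 against dcKO vehicle (adjusted p = 0.0459). Rpl29, a ribosomal protein gene with many pseudogene copies, was at 11.5, 9.78, 1.57 and 8.02 CPM in WT and at 0.741 to 1.44 CPM in all 8 dcKO libraries. WT 3 was close to the dcKO level, and reads of this gene can be split among copies.

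Genes were then placed in 3 classes by the 3 comparisons, which share libraries with each other, so the classes are descriptions. A gene still differed where both dcKO groups were called against WT in the same direction. It differed with the inhibitor where the inhibitor group was called against both other groups in the same direction. It had returned where dcKO vehicle was called against WT, the inhibitor moved it the opposite way, and the inhibitor group was not called against WT. The first 2 classes can share genes, and Gm17491 was in both by nominal calls. The second class does not require vehicle to match WT. Epha6 and Sept1 were in it by nominal calls, with dcKO vehicle libraries wholly below WT for Epha6 and wholly above for Sept1. After adjustment the edgeR fit put 0 genes in the first class, 1 in the second (BC049715) and 0 in the last, and DESeq2 put 44, 161 and 9. With nominal calls the first class held 65 higher (0.397%) and 66 lower (0.403%), the second 182 higher (1.11%) and 152 lower (0.928%), and the last 25 that were higher in dcKO vehicle (0.153%) and 22 that were lower (0.134%). The order was different after adjustment with the 3 libraries left out. The first class then held 182 higher (1.08%) and 246 lower (1.46%), the second 18 (0.107%) and 90 (0.535%), and the last 13 (0.0773%) and 22 (0.131%).

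Cntn1, Camk1d and Sv2b were among the genes that remained below WT. Cntn1, an axonal cell adhesion molecule, was at 109.5, 125, 124 and 139 CPM in WT, at 77.3, 82.9, 88.4 and 90.2 CPM in dcKO vehicle, and at 73.0, 102, 65.8 and 65.3 CPM with inhibitor. All 8 dcKO libraries lay below the 4 WT libraries, with log2 differences of -0.55 for vehicle and -0.70 for inhibitor (edgeR adjusted p = 0.233 and 0.0568). Camk1d, a calcium-dependent kinase, differed by -0.41 with vehicle and -0.72 with inhibitor (adjusted p = 0.342 and 0.0568), with 76.6 to 89.2 CPM in WT, 58.3 to 68.8 CPM in dcKO vehicle and 39.8 to 66.2 CPM with inhibitor. Again no dcKO library reached the WT range. Both genes fell in both dcKO groups when the 3 libraries were left out, with adjusted p of 0.00338 for Cntn1 and 0.00191 for Camk1d in the inhibitor group. Nos1, the neuronal nitric oxide synthase, was also lower with inhibitor by 0.71 on the log2 scale (adjusted p = 0.0526), at 70.3 to 96.5 CPM against 128 to 139 CPM in WT, and its vehicle difference was -0.31.

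Genes that remained above WT included Fzd5 and Six5. Six5, a homeodomain factor, was at 6.24, 6.29, 4.22 and 5.42 CPM in WT, at 12.4, 8.28, 12.4 and 13.1 CPM in dcKO vehicle, and at 8.91, 8.21, 13.5 and 13 CPM with inhibitor. The groups did not overlap WT, and the differences were 1.05 with vehicle and 0.97 with inhibitor (adjusted p = 0.221 and 0.071). Six5 rose by 1.25 with inhibitor when these libraries were left out (adjusted p = 0.0031). In total, 99 genes had all 8 dcKO libraries above the 4 WT libraries (0.605%) and 135 had all 8 below (0.825%).

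**Figure D2:**
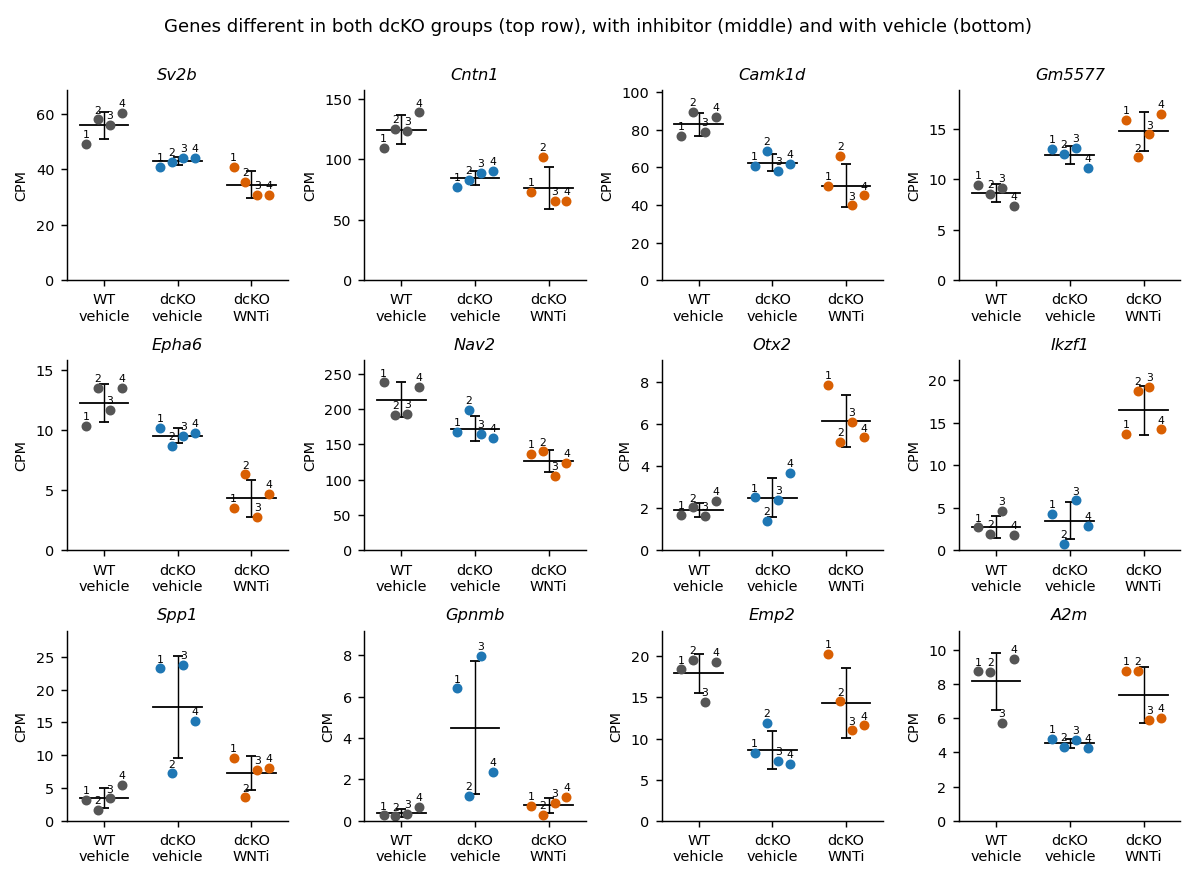
CPM (vertical axes) of genes that still differed from WT (top row), differed with the inhibitor (middle row) and had returned (bottom row), by group. Points are libraries numbered by replicate and bars the mean ± SD (n = 4). Otx2 and Ikzf1 in dcKO WNTi lie above all 8 other libraries, Epha6 lies below them, and Spp1 with inhibitor (3.56 to 9.57 CPM) overlaps WT and lies below dcKO vehicle 1, 3 and 4.

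Several genes of interneurons and the ventral telencephalon were higher than WT with the inhibitor, and some of them also with vehicle. Of 20 list members tested, 8 were nominally higher than WT (background 3.01%) and 0 lower, and the same number (8) lay wholly above WT (background 3.48%). The median log2 difference was 0.50, beside 0.01 over all genes, and 0.21 for dcKO vehicle. Isl1, a LIM homeodomain factor of striatal and cholinergic neurons, was at 6.09, 11.2, 3.06 and 3.25 CPM in WT, at 8.43, 0.445, 12.8 and 6.48 CPM in dcKO vehicle, and at 15.6, 42.0, 29.1 and 38.1 CPM with inhibitor. Drd2, the dopamine receptor of striatal projection neurons, was at 3.68, 1.79, 1.41 and 1.74 CPM in WT and at 5.86, 8.38, 6.71 and 7.85 CPM with inhibitor, against 0.757 to 3.53 CPM in dcKO vehicle. For both genes the inhibitor libraries were above the 8 others. Their log2 differences from WT were 2.39 for Isl1 and 1.72 for Drd2 (edgeR adjusted p = 0.0968 and 0.0771).

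Nkx2-1, which specifies the medial ganglionic eminence, was at 3.22 to 3.72 CPM in WT and 1.69 to 3.79 CPM in dcKO vehicle. With inhibitor it was at 8.19, 22.9, 4.42 and 9.80 CPM, and its difference from WT was 1.70 (adjusted p = 0.0812). Lhx8, a partner of Nkx2-1 in cholinergic neurons, was likewise highest in WNTi 2 at 12.5 CPM, with 8.09 CPM in WNTi 4, 2.51 in WNTi 1 and 1.65 in WNTi 3, the last within the WT range of 0.0827 to 1.89 CPM. Dlx1, an interneuron homeobox gene, was at 192 to 227 CPM in WT and 265 to 340.3 CPM with inhibitor. Foxp1, a forkhead factor of striatal and cortical projection neurons, was at 113 to 137 CPM in WT, 83.2 to 106 CPM in dcKO vehicle and 145 to 175 CPM with inhibitor. It rose against dcKO vehicle by 0.76 (adjusted p = 0.0263), and its difference from WT was 0.39 (adjusted p = 0.0982). Sox8, a glial HMG-box factor, rose against dcKO vehicle by 0.88 (adjusted p = 0.0263), at 32.4 to 35.4 CPM with inhibitor, 16.8 to 21.8 CPM in dcKO vehicle and 18.4 to 26 CPM in WT. In that comparison 7 genes rose (0.0428%) and 2 fell (0.0122%), 9 in all (0.055%), and 400 were nominally higher (2.44%) and 361 lower (2.2%). The inhibitor libraries lay wholly above dcKO vehicle for 734 genes (4.48%) and wholly below for 659 (4.03%). DESeq2 called 174 higher (1.06%) and 165 lower (1.01%), and with the 3 libraries left out edgeR called 51 higher (0.303%) and 121 lower (0.72%). Nominally, 6 list members differed with the inhibitor from both other groups (background 1.11%), namely Drd2, Nkx2-1, Dlx6, Isl1, Foxp1 and Lhx8. When the 3 libraries were left out, 9 of the 20 rose against WT with inhibitor (background 2.66%) and 4 with vehicle (background 2.47%). After adjustment in that fit, 0 differed with the inhibitor from both other groups, and 4 were above WT in both dcKO groups, namely Dlx6, Dlx1, Dlx5 and Ppp1r1b. Isl1 and Drd2 rose against WT there (adjusted p = 0.00984 and 0.00996), and their differences between inhibitor and vehicle were 1.86 and 1.20 (adjusted p = 0.0777 and 0.0893). The share of striatum or ganglionic eminence in each dissection is not given in the labels, and its part in these values was not tested.

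Choroid plexus RNA moved with the inhibitor in some libraries. The summed level of the choroid list, 17 members tested, was 85.84 to 250.6 CPM in WT and 998.8, 252.6, 612.6 and 137.2 CPM in dcKO WNTi 1 to 4. Ttr, the transthyretin that is the most abundant choroid transcript, was at 803, 146, 448 and 4.03 CPM in WNTi 1 to 4, at 3.14 to 114 CPM in WT and at 3.87 to 5.79 CPM in dcKO vehicle. WNTi 4 thus held no more than WT, whereas WNTi 1 and 3 held several times the WT maximum. Folr1, a choroid folate receptor, followed at 8.73, 2.18, 6.12 and 0.279 CPM, and Clic6 at 16.7, 5.68, 15 and 0.957 CPM. Kl, another defining marker, overlapped WT, with 0.389 to 1.14 CPM against 0.331 to 0.930 CPM. In all, 5 of the 17 members were nominally higher with inhibitor (background 3.01%), namely Otx2, 1500015O10Rik, Sostdc1, Folr1 and Calml4, with a list median of 1.68 against -0.41 for dcKO vehicle. Of these 5, 4 were also nominally higher than dcKO vehicle (background 1.11% for both calls). The exception, 1500015O10Rik, was above WT in both dcKO groups, by 1.93 with inhibitor and 2.19 with vehicle. Its difference between inhibitor and vehicle was -0.26 (edgeR adjusted p = 0.738). Without the 3 libraries 2 members rose (background 2.66%). Otx2 was above WT in WNTi 4 as well, at 5.38 CPM with choroid RNA at the WT level.

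Gene length also moved with the inhibitor. The 493 genes nominally higher than WT had a median exon length of 2676 bases and the 607 lower ones a median of 8117, against 4197.5 over all tested genes. For dcKO vehicle the medians were 4250 and 5559. Genes under 1000 bases of exon (824 genes) had a median log2 difference from the WT mean of 0.38, 0.0691, 0.239 and 0.237 in WNTi 1 to 4, and genes over 8000 bases (2704 genes) of -0.345, 0.00976, -0.204 and -0.128. WT libraries were between -0.00181 and 0.0801 for short genes and between -0.13 and 0.0709 for long genes, and dcKO vehicle libraries between 0.0277 and 0.121 and between -0.0383 and 0.0303. WNTi 1, 3 and 4 therefore lay outside both other groups for short genes, and WNTi 2 did not.

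Families of short genes followed the same pattern, with a median exon length of 1781 bases for ribosomal protein genes and 1587 for respiratory chain subunit genes. Of 81 ribosomal protein genes, 79 had a positive difference from WT with inhibitor and 18 were nominally higher (background 3.01%), with a median of 0.34 beside 0.02 for dcKO vehicle. Of 85 respiratory chain subunit genes, 84 were positive and 10 nominally higher (background 3.01%), with a median of 0.29 beside -0.03. Clustered protocadherins, the adhesion proteins that give neurons a surface identity, were lower, with 6 of 53 positive, 6 nominally lower (background 3.71%) and a median of -0.41 beside 0.09. Their median exon length was 5041 bases, against 4197.5 over all tested genes, so they are not a family of the longest genes. With the 3 libraries left out the medians were 0.38, 0.30 and -0.38, and 16 ribosomal protein genes and 7 respiratory chain genes rose (background 2.66%) and 7 protocadherins fell (background 4.72%). With scaling offsets adjusted for length, added after the values were seen, the medians were 0.20, 0.14 and -0.40, and 14 genes rose (0.0855%) and 5 fell (0.0305%), of which 11 were among the 16. Nominally 428 were then higher (2.61%) and 468 lower (2.86%). Nav2, with 32228 bases of exon, differed by -0.34 under that scaling (adjusted p = 0.36), whereas Epha6 fell by 1.48 (adjusted p = 0.0316) and Otx2 and Ikzf1 rose by 1.62 and 2.64 (adjusted p = 0.0426 and 0.0457). Sv2b differed by -0.58 (adjusted p = 0.0664). The part of length, or of whatever moves with it, in the other values was not tested.

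**Figure D3:**
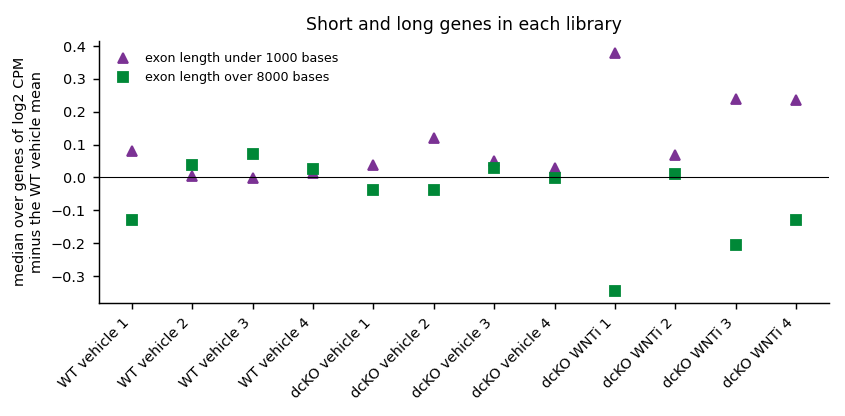
Median log2 difference from the WT mean (vertical axis) over genes with under 1000 bases of exon (triangles) and over 8000 bases (squares), for each of the 12 libraries (horizontal axis). WNTi 1, 3 and 4 stand at 0.38, 0.239 and 0.237 for short genes and at -0.345, -0.204 and -0.128 for long genes, and the 2 symbols lie closer together in the other 9 libraries.

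Wnt ligands and receptors differed in whether they had returned toward WT. Wnt2b, a ligand of the cortical hem (ENSMUSG00000027840, chr3:104945272-104961921), was at 3.53, 5.01, 3.06 and 4.03 CPM in WT, at 11.6, 5.25, 11.1 and 11.5 CPM in dcKO vehicle, and at 2.57, 4.99, 4.96 and 7.09 CPM with inhibitor. The log2 difference from WT was 1.32 with vehicle and 0.33 with inhibitor, and inhibitor against vehicle was -1.0 (edgeR adjusted p = 0.221, 0.572 and 0.187). Wnt2b was the ligand in the returned class, and with inhibitor 0 of 15 ligand and secretion genes were nominally different from WT (background 6.72% in either direction). With the 3 libraries left out 1 of 15 ligand and secretion genes rose with inhibitor (background 2.66%), and 0 had returned. Wnt2b rose by 1.53 with vehicle there (adjusted p = 0.000806), with differences of 0.62 for inhibitor against WT and -0.91 for inhibitor against vehicle (adjusted p = 0.1 and 0.0743). Fzd7, a receptor of progenitor cells whose upstream stretch is shown above, was at 19.6 to 21.6 CPM in WT, 24.3 to 29.1 CPM in dcKO vehicle, and 14.5, 20.7, 20.4 and 20.7 CPM with inhibitor. The inhibitor libraries overlapped WT and lay below all dcKO vehicle libraries, by 0.49 on the log2 scale (adjusted p = 0.155).

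Fzd5, a receptor of eye field and early forebrain (ENSMUSG00000045005, chr1:64730558-64737751), was not in the returned class. It was at 2.1, 2.3, 2.4 and 2.29 CPM in WT, at 5.86, 3.52, 5.67 and 8.06 CPM in dcKO vehicle, and at 3.77, 6.08, 7.68 and 7.49 CPM with inhibitor. All 8 dcKO libraries were above WT. The inhibitor difference was 1.47 (SE 0.264, adjusted p = 0.0526) and the vehicle difference 1.35 (adjusted p = 0.221), while inhibitor against vehicle was 0.12 (adjusted p = 0.845). Fzd5 rose by 1.74 without the 3 libraries (adjusted p = 0.00107). It was the only one of 18 receptor and coreceptor genes that was nominally different from WT with inhibitor (background 6.72% in either direction). Without the 3 libraries and after adjustment, 3 of the 18 rose with inhibitor (background 2.66%) and 1 fell (background 4.72%). In that fit 2 were above WT in both dcKO groups (background 1.08%).

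Secreted antagonists moved in different ways. Without the 3 libraries and after adjustment, 4 of 13 rose with inhibitor against WT (background 2.66%) and 1 fell (background 4.72%). Sfrp5, a Frizzled-related protein of the antihem side of the pallium, was at 0.972, 1.28, 1.16 and 1.59 CPM in WT, at 0.451, 0.445, 0.610 and 0.373 CPM in dcKO vehicle, and at 2.51, 2.24, 1.51 and 1.95 CPM with inhibitor. It rose against dcKO vehicle by 2.10 (SE 0.254, adjusted p = 0.0194), a call that held without the 3 libraries (adjusted p = 0.0331), and its difference from WT was 0.69 with inhibitor (adjusted p = 0.149) and -1.41 with vehicle (adjusted p = 0.221). Sfrp1, the abundant antagonist of radial glia, was at 108, 128, 152 and 124 CPM in WT, at 225, 176, 226 and 241 CPM in dcKO vehicle, and at 120.0, 141, 252 and 226 CPM with inhibitor. WNTi 1 and 2 lay in the WT range, and WNTi 3 and 4 lay in the dcKO vehicle range or above it. Dkk1, which binds LRP coreceptors, was at 0.0512 to 0.248 CPM in WT, 0.479 to 1.12 CPM in dcKO vehicle, and 0.239, 0.746, 1.55 and 0.957 CPM with inhibitor, with a difference from WT of 2.59 (adjusted p = 0.079). Only WNTi 1 overlapped WT.

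Axin2 and Ccnd1, targets of β-catenin, were lower in WNTi 1 and 2 than in WNTi 3 and 4, as was Sfrp1. Axin2, the feedback inhibitor of the pathway (ENSMUSG00000000142, chr11:108920349-108950783), was at 32.1, 32.1, 25.2 and 32.5 CPM in WT, at 47.9, 32.6, 46.8 and 46.1 CPM in dcKO vehicle, and at 25.2, 32.4, 35.1 and 43.0 CPM in dcKO WNTi 1 to 4. WNTi 1 and 2 and dcKO vehicle 2 lay in the WT range or at its edge, WNTi 3 was slightly above, and WNTi 4 lay near the other dcKO vehicle libraries. The log2 difference from WT was 0.16 with inhibitor (SE 0.165, adjusted p = 0.625) and 0.51 with vehicle (adjusted p = 0.337), and inhibitor against vehicle was -0.35 (adjusted p = 0.318). Without the 3 libraries the inhibitor difference was 0.36 (adjusted p = 0.126), Axin2 rose by 0.62 with vehicle (adjusted p = 0.0107), and inhibitor against vehicle was -0.26 (adjusted p = 0.36).

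Ccnd1, the G1 cyclin, was at 32.1, 35.6, 32.2 and 32.1 CPM in WT, at 49.9, 38.1, 51.1 and 54.5 CPM in dcKO vehicle, and at 24.6, 35.8, 40.9 and 46.2 CPM with inhibitor. Its difference from WT was 0.16 with inhibitor (adjusted p = 0.612) and 0.55 with vehicle (adjusted p = 0.303). Ccnd1 rose by 0.40 with inhibitor when the 3 libraries were left out (adjusted p = 0.0429). Lef1, a TCF/LEF factor and itself a target, was at 3.94 to 6.45 CPM in WT, 5.66 to 8.72 CPM in dcKO vehicle and 6.04 to 7.97 CPM with inhibitor, and the groups overlapped. Of 15 fixed targets and TCF factors, 1 was nominally higher than WT with inhibitor (background 3.01%), Birc5, an inhibitor of apoptosis at the mitotic spindle (0.43, adjusted p = 0.129), and 2 were lower (background 3.71%). These were the antagonist Apcdd1 (-0.32, adjusted p = 0.144) and Tnfrsf19 (-0.26, adjusted p = 0.145), a TNF receptor whose intronic stretch is shown above, at 68.9 to 72.6 CPM against 80.0 to 88.7 CPM in WT. Without the 3 libraries and after adjustment, 2 of the 15 rose with inhibitor (background 2.66%) and 1 fell (background 4.72%).

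**Figure D4:**
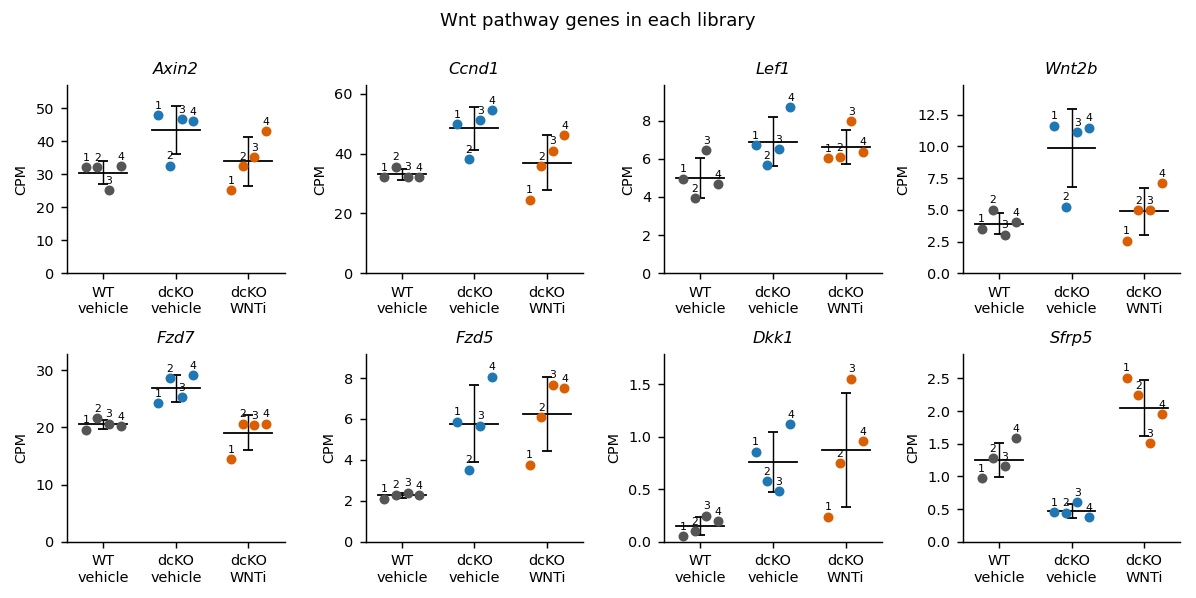
CPM (vertical axes) of 8 Wnt pathway genes in WT vehicle, dcKO vehicle and dcKO WNTi. Points are libraries numbered by replicate and bars the mean ± SD (n = 4). Wnt2b and Fzd7 with inhibitor overlap WT, Fzd5 stays above WT in all 8 dcKO libraries, and for Axin2 and Ccnd1 the WNTi libraries 1 and 2 lie in, beside or below the WT range while 3 and 4 lie above it.

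Genes of phagocytes and of other cell types were among the 47 that had returned. Spp1, the osteopontin of activated microglia, was at 3.12, 1.69, 3.39 and 5.42 CPM in WT, at 23.2, 7.21, 23.8 and 15.2 CPM in dcKO vehicle, and at 9.57, 3.56, 7.78 and 8.05 CPM with inhibitor. The difference from WT was 2.33 with vehicle and 1.07 with inhibitor, and inhibitor against vehicle was -1.26 (edgeR adjusted p = 0.198, 0.19 and 0.193). Gpnmb, a lysosomal glycoprotein of phagocytes, was at 0.205 to 0.659 CPM in WT, 1.20 to 7.97 CPM in dcKO vehicle and 0.287 to 1.16 CPM with inhibitor, where it was below every vehicle library. Of 23 microglia and phagocyte genes tested, 6 were nominally higher with vehicle (background 1.56%) and 1 with inhibitor (background 3.01%), Cd68, a lysosomal protein of phagocytes. Csf1r, a defining microglia marker, was instead lower with inhibitor, at 10.25 to 16.6 CPM against 18.1 to 19.3 CPM in WT (-0.43, adjusted p = 0.1765). With inhibitor 1 list member lay wholly above WT (background 3.48%) and 2 wholly below (background 4.02%). None of the 25 tested without the 3 libraries had returned after adjustment, where inhibitor against vehicle was -1.39 for Spp1 and -2.44 for Gpnmb (adjusted p = 0.0859 and 0.0553). Emp2, an epithelial tetraspan protein, was at 18.4, 19.6, 14.5 and 19.4 CPM in WT, at 8.21, 11.9, 7.32 and 6.95 CPM in dcKO vehicle, and at 20.3, 14.5, 11 and 11.6 CPM with inhibitor. With the 3 libraries left out, Emp2 fell by 0.67 with inhibitor against WT (adjusted p = 0.0274), and so was no longer in the returned class. A2m, a protease inhibitor, was at 5.71 to 9.49 CPM in WT, 4.24 to 4.78 CPM in dcKO vehicle and 5.88 to 8.79 CPM with inhibitor. For A2m the inhibitor libraries lay within the WT range and above every dcKO vehicle library.

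The 4 gene lists of the study were examined next. The study drew them from its own untreated libraries, at an unadjusted p under 0.01, so their direction is not independent of the dcKO genotype, and dcKO vehicle libraries move with it by choice of list. Of 79 proliferation genes tested, 33 were nominally higher than WT with vehicle (background 1.56%) and 8 with inhibitor (background 3.01%), with medians of 0.45 and 0.31. Those higher with inhibitor included the homeodomain factors Six5 and Shox2, the receptor Fzd5, the glial gene Fabp7, Fbxo2, Srsf6 and Cks1b, a subunit of cyclin-dependent kinase complexes. Of 37 Wnt genes, 20 were nominally higher with vehicle (background 1.56%) and 1 with inhibitor, Fzd5 (background 3.01%), with medians of 0.48 and 0.27. Of 15 Wnt target genes, 6 and 2 were nominally higher, against the same backgrounds, with medians of 0.51 and 0.41. The inhibitor group thus had fewer nominal calls on each of these 3 lists, although the medians stayed above the median of all genes.

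The libraries of the inhibitor group were spread widely on these lists. The median log2 deviation of the Wnt list from the WT mean was -0.204, 0.122, 0.432 and 0.482 in WNTi 1 to 4, beside 0.552, 0.215, 0.545 and 0.632 in dcKO vehicle 1 to 4. For the proliferation list the same values were -0.12, 0.136, 0.522 and 0.505 with inhibitor and 0.549, 0.172, 0.622 and 0.621 with vehicle, and for the Wnt targets they were -0.12, 0.161, 0.615 and 0.544 with inhibitor and 0.595, 0.255, 0.63 and 0.724 with vehicle. WNTi 1 and 2, whose deleted-gene RNA was close to WT, had the low values on all 3 lists, as did dcKO vehicle 2 among the vehicle libraries, and WNTi 3 and 4 lay at 0.432 or above. Without the 3 libraries and after adjustment, 26 of 81 proliferation genes rose with inhibitor (background 2.66%) and 42 with vehicle (background 2.47%), 14 and 22 of 37 Wnt genes, and 6 and 8 of 15 Wnt target genes. Of these, 22, 12 and 6 still differed from WT in both groups (background 1.08%), and 0 had returned on any of the 3 lists (background 0.0773%). Nominally, with the 12 libraries as labelled, 5 proliferation, 4 Wnt and 0 Wnt target genes had returned (background 0.153%). In the same order, 5, 1 and 2 still differed (background 0.397%).

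Neurogenesis genes were lower in both dcKO groups. Of 109 genes on the study's list of neurogenesis genes lower in dcKO, 40 were nominally lower with inhibitor (background 3.71%) and 1 was higher, and 20 were lower with vehicle (background 1.29%), with medians of -0.37 and -0.31. The median deviation was -0.284, -0.139, -0.595 and -0.48 in WNTi 1 to 4, and -0.324, -0.182, -0.339 and -0.411 in dcKO vehicle 1 to 4. The WT libraries 1 to 4 stood at 0.0784, 0.00978, -0.133 and 0.0931. All 8 dcKO libraries were below 0, and WNTi 3 and 4 were the lowest of them. WT 3 was below 0 as well, and WNTi 2 lay only just under it. With length-adjusted offsets 21 were nominally lower with inhibitor (background 2.86%) and the median was -0.25. Without the 3 libraries and after adjustment, 56 fell with inhibitor (background 4.72%) and 29 with vehicle (background 3.34%).

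**Figure D5:**
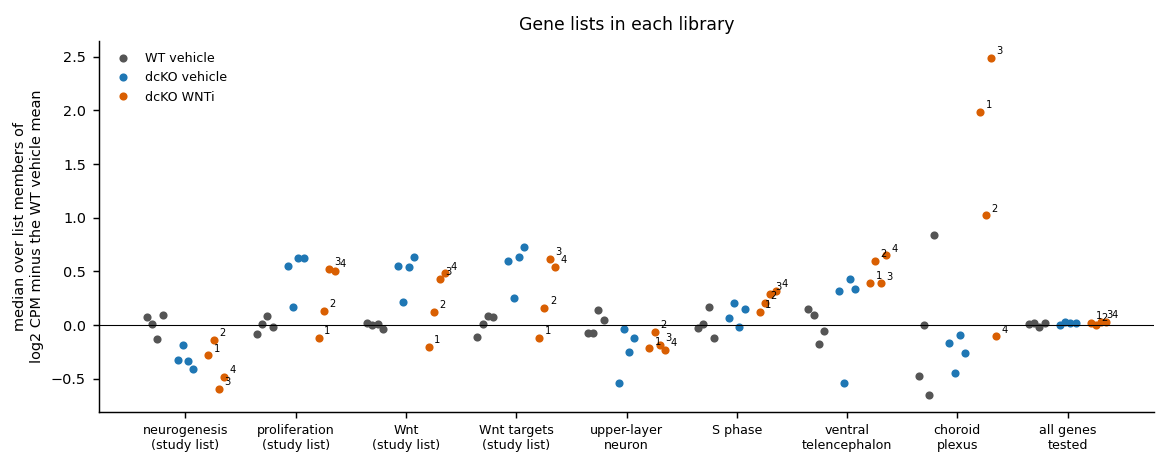
Median log2 deviation from the WT mean (vertical axis) of the genes on each list (horizontal axis), namely the study's 4 lists, 4 lists of cell types and S phase, and all genes tested. Points are the 12 libraries, coloured by group, with WNTi libraries numbered by replicate. On the proliferation, Wnt and Wnt target lists the WNTi libraries 1 and 2 lie at or below 0.161 and libraries 3 and 4 at 0.432 or above. On the neurogenesis list all 8 dcKO libraries lie below 0, as does WT 3 at -0.133, close to WNTi 2 at -0.139.

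Upper-layer neuron genes leaned lower in both dcKO groups, and radial glia genes were split. The upper-layer median was -0.12 with inhibitor and -0.18 with vehicle, and inhibitor against vehicle was -0.05. With vehicle, 12 of the 16 upper-layer genes had a negative difference from WT and 2 were nominally lower (background 1.29%). Of 16 upper-layer genes, 14 had a negative difference from WT with inhibitor, 4 lay wholly below WT (background 4.02%) and 3 were nominally lower (background 3.71%), Plxna4, Limch1 and Kcnh5. With the 3 libraries left out, 5 of the 16 fell with inhibitor (background 4.72%) and 3 with vehicle (background 3.34%). Plxna4, a semaphorin receptor, was at 508 to 579 CPM in WT, 480.0 to 579 CPM in dcKO vehicle and 329 to 421 CPM with inhibitor (-0.54, adjusted p = 0.0545), and under length-adjusted offsets it differed by -0.32. Zbtb20, a hippocampal factor, was at 233, 342, 451 and 383 CPM in WT and at 162, 301, 185 and 216 CPM with inhibitor, overlapping WT, with 247 to 307 CPM in dcKO vehicle. Its difference from WT was -0.70 (adjusted p = 0.115), or -0.30 with length-adjusted offsets.

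Of 20 radial glia genes, 10 had a positive difference from WT with inhibitor and 2 were nominally higher (background 3.01%), with a median of -0.05. The 2 were Fabp7, a fatty acid binding protein of radial glia, at 576 to 886 CPM against 507 to 539.6 CPM in WT (0.49, adjusted p = 0.0812), and the stem cell factor Sox2 at 69.2 to 106 CPM against 55.9 to 73.6 CPM (0.48, adjusted p = 0.146). In dcKO vehicle Fabp7 was at 559 to 613 CPM, also wholly above WT, and Sox2 was at 62.7 to 97.7 CPM. Without the 3 libraries and after adjustment, 3 of the 20 rose with inhibitor (background 2.66%). With vehicle 1 rose (background 2.47%) and 4 fell (background 3.34%) in that fit. Eomes, which marks intermediate progenitors, was at 79.8 to 110.3 CPM with inhibitor and 84.9 to 132 CPM in WT. The dcKO vehicle libraries spread wider for Eomes, from 44.5 to 153 CPM, with the highest value in vehicle 2. Of 28 S phase genes, 27 had a positive difference from WT with inhibitor and 23 with vehicle, beside 8324 of all 16372 genes with inhibitor. The medians were 0.22 and 0.10. With inhibitor 6 lay wholly above WT (background 3.48%) and 3 were nominally higher (background 3.01%), the replication genes Mcm5 and Gins2 and the regulator E2f1. By library the list median overlapped between groups, at 0.124 in WNTi 1 and 0.209 in WNTi 2, beside 0.164 in WT 3 and 0.209 in dcKO vehicle 2. E2f1 was at 17.6 to 21.2 CPM in WT, 23.9 to 26.9 CPM in dcKO vehicle and 22.9 to 28.6 CPM with inhibitor, so neither dcKO group overlapped WT. Mcm5 and E2f1 also rose with the 3 libraries left out (adjusted p = 0.0427 and 0.0413), the 2 of 28 that did.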

How the data were processed

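Total RNA was made into libraries with the TruSeq RNA v2 kit, which does not mark strand. The authors aligned reads to mm10 with STAR and deposited counts per gene made with featureCounts, with 1 table per sample, and versions and annotation are not given in the sources used here. Counts were used as deposited. The tables held 48709 genes and totals of 12514443 to 26600594 counts per library, with 0.935% to 2.01% from mitochondrial genes. Of the 48709 Ensembl identifiers in these tables, 360 had no symbol. Coordinates and symbols were taken from GENCODE M21.

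The 12 libraries were fitted together in edgeR 4.0.16 (R 4.3.3) with TMM scaling, filterByExpr and a robust quasi-likelihood fit, leaving 16372 genes. Adjusted p-values are Benjamini-Hochberg values over all of them. DESeq2 1.42.0 was an alternative. Gene lists and members were chosen with earlier results of these data known. Named genes were the deleted genes, anchor markers, called genes whose mean count was 10 or more and whose groups did not overlap, and the smallest p-values of each class and list, and 4 of these genes are not reported here. Simulated data for the inhibitor comparison, with 200 of 16108 genes changed by 1 on the log2 scale, gave 155 recovered and 7 false calls. Figures used Python 3.11.15, pandas 2.3.3 and matplotlib 3.10.9. Promoter windows came from RefSeq, GRCm38.p6. Library depth limits the precision of genes under 1 CPM, where a library held few reads. The other samples of the series were not used here.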

Additional observations from a re-analysis of the deposited data

Results flagged for a closer look

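In 246 groups of 4 libraries, 114 named genes and the marker sums included, 9 held a library whose gap to its nearest neighbour passed Dixon's 95% limit, where chance flags about 1 in 20 groups. No explanation was tested for them, and all values are CPM. Among WT libraries, Drd2 was at 3.683 in replicate 1 (1.406 to 1.791 in the others), Tjp1, a tight junction scaffold, at 81.02 in replicate 1 (101.3 to 101.7), and the TCF factor Tcf7l2 at 4.143 in replicate 1 (6.039 to 6.368). Ccnd1 was at 35.62 in WT replicate 2 (32.07 to 32.25), and Axin2 at 25.22 in WT replicate 3 (32.07 to 32.5). Among dcKO WNTi libraries, Sox8 was at 32.41 in replicate 1 (34.99 to 35.38) and Mcm5 at 59.91 in replicate 4 (50.17 to 50.97). The Y-linked Eif2s3y was at 0.2391 in dcKO WNTi replicate 4 (96.63 to 106.7), and the erythroid sum was at 256.5 there (305.5 to 313.5).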

How the results depend on the processing

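Counts of genes past the threshold moved widely with the processing, and the cause was not tested. For inhibitor-treated dcKO against WT (10 higher and 6 lower), no filter on low counts gave 26 and 32, DESeq2 324 and 458, lane as a term 0 and 0, leaving out the 1 library at the WT level of both deleted genes 563 and 890, leaving out the 3 near it 448 and 793, Y-linked RNA as a term 1 and 0, and a fit of only the 2 groups 0 lower. Nominal counts (493 and 607) were 489 and 636 with lane, 451 and 556 with Y-linked RNA, 309 and 341 in the fit of 2 groups, 950 and 1247 without the 1 library, and 786 and 1207 without the 3. For dcKO vehicle against WT (1 and 0), 85 and 35 were called by DESeq2, 416 and 562 without the 3, 2 higher without the 1, and 0 higher with DESeq2 size factors, no filter, 2 groups, lane, Y-linked RNA or length-adjusted offsets. For inhibitor against vehicle (7 and 2), the counts were 15 and 5 without a filter, 174 and 165 by DESeq2, 0 and 0 with lane, 143 and 277 without the 1, 51 and 121 without the 3, and 1 and 0 with Y-linked RNA.

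Genes still different from WT after adjustment (0) were 44 by DESeq2, 2 without the 1 library and 428 without the 3, and nominally (131) were 200, 226 and 693 in that order and 62 with lane. Genes different with inhibitor after adjustment (1) were 2 with DESeq2 size factors, 10 without a filter, 161 by DESeq2, 0 with lane or Y-linked RNA, 364 without the 1, 108 without the 3 and 3 with length-adjusted offsets, and nominally (334) were 527 by DESeq2, 534 with lane, 1038 without the 1 and 629 without the 3. Returned genes (0) were 9 by DESeq2 and 35 without the 3, and nominally (47) were 75 without a filter, 83 by DESeq2, 107 with lane and 176 without the 3.

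Same-numbered libraries deviated together in 5 of 12 pairs at a correlation over 0.1 (-0.176 to 0.403, mean 0.0929, beside -0.0285 for different numbers), so the numbers were not taken as pairs. With replicate number as a block, the inhibitor group had 64 higher and 125 lower against WT, dcKO vehicle 4 and 1, and inhibitor against vehicle 1 lower. The classes with the block held 4 still different and 3 different with inhibitor after adjustment, and 226 still different and 77 returned nominally.

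Leaving out 1 library at a time gave 0 to 563 higher and 0 to 890 lower for inhibitor against WT, 282 to 950 and 236 to 1247 nominally, 0 to 222 and 0 to 340 for vehicle against WT, and 0 to 143 and 0 to 277 for inhibitor against vehicle. Classes ranged from 0 to 32 still different (53 to 305 nominally), 0 to 364 with inhibitor (166 to 1038) and 0 to 77 returned (15 to 376).

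Single genes near 0 changed sign in the log2 difference of inhibitor against WT. With lane as a term these were Ptgds (-0.034), Wnt2b (-0.0019), Ccnd1 (-0.0277), Axin2 (-0.0128), Atxn1 (0.0058), Bcl11b (-0.01075), Slc1a3 (-0.0202), C3ar1 (-0.0878) and Ocln (-0.0687). Others were Bcl11b without the 1 library (-0.0374), Eomes (0.0183) and Mki67 (0.03615) with Y-linked RNA, and Atxn1 (0.16), Cux1 (0.29) and Mki67 (0.12) with length-adjusted offsets. Leaving out 1 library, ranges spanned 0 for Ocln (-0.0611 to 0.16), Cux1 (-0.0589 to 0.0187), Mki67 (-0.14 to 0.0881), Spem1 (-0.04735 to 0.56), Bcl11b (-0.0374 to 0.25), Rgs9bp (-0.13 to 0.39), C3ar1 (-0.0361 to 0.33), Ptgds (-0.00117 to 2.42) and Atxn1 (-0.16 to 0.00978).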
